A study of Mus musculus with 8 samples.

Results

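RNAs that antibodies against GFP and against the poly(A) binding protein PABP1 recovered alike, or left behind alike, were sought in mouse embryonic stem (ES) cells of the Dazl-GFP line. All 8 arrays of the series enter this comparison: 5 arrays of immunoprecipitated RNA (3 GFP IPs and 2 PABP1 IPs) against 3 arrays of input RNA, the total RNA from which the IPs were made. The mean of the GFP IPs and the mean of the PABP1 IPs were given equal weight, and an RNA was called shared only where their average differed from input past an adjusted p of 0.05 and both IPs lay on the same side of input. The study used RNA-IP to find RNAs that DAZL binds. A class of RNA that is low or high in both IPs is a different readout, since it does not separate one antibody from the other.

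PABP1 coats the poly(A) tails of messenger RNAs in the cytoplasm and takes part in their translation and stability. DAZL is an RNA-binding protein of germ cells that binds the 3′ untranslated regions of mRNAs and is known to interact with poly(A) binding proteins. RNAs that stay in the nucleus, or that lack a poly(A) tail, are outside the usual reach of both proteins, as textbook background. Long non-coding RNAs of the nucleus such as Malat1 and Neat1, mRNAs whose introns are kept, and histone mRNAs that end in a stem-loop are the best-known examples.

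Every group came from the same re-derived transgenic ES line, grown on γ-irradiated feeder fibroblasts in medium with 15% serum, leukemia inhibitory factor, the MEK inhibitor PD0325901 at 1 µM and the GSK3β inhibitor CHIR99021 at 3 µM, the pair known as 2i. Input RNA saw no antibody, and the IPs were native, without crosslinking. By their labels the groups differ in the antibody, and no control-antibody IP was analysed here. The line is 1 line, and the sources used here do not say whether GFP is fused to DAZL in it. Between 41.5% and 52.6% of an array's 43379 spots stood well above background, and none was saturated. Values are log2 signal relative to the array's 75th percentile, so a value of 0 is the level of the 75th percentile spot, and a difference compares an RNA's share of the labelled RNA, not its amount per cell. Of 27666 genes on the array, 14668 were tested. All 19 ES cell markers on the array, among them Pou5f1, Nanog and Sox2, were well above background on all inputs. Feeder RNA was also present: 24 of 30 fibroblast markers were above background on all inputs, while Fap and Pdgfra were on no array.

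With arrays scaled to their 75th percentile, more RNAs were shared as lower than as higher, and with median scaling the order was the reverse. Of the 14668 tested genes, 2478 (16.9%) were shared as higher in both IPs than in input and 3469 (23.7%) were shared as lower, by limma with Benjamini-Hochberg adjustment. The size of the average difference had a median of 1.15 among the higher genes and −1.08 among the lower genes. Large losses outnumbered large gains: 79 genes were at least 8-fold lower in each IP, and 2 were at least 8-fold higher. At 2-fold or more in each IP, the counts were 1090 lower and 590 higher. With the stricter demand that each IP alone passed the threshold, 1369 genes (9.33%) were higher and 2139 (14.6%) lower. In 1687 genes (11.5%) shared as higher, all 5 IP arrays lay above all 3 inputs, and in 2616 genes (17.8%) shared as lower they all lay below. The median tested gene stood at −0.07 in the average, −0.52 in the GFP IP and 0.24 in the PABP1 IP.

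The balance between both directions depends on where zero is set. When arrays were scaled to their median in place of the 75th percentile, the median tested gene moved to 0.23, and 3747 genes (25.5%) were shared as higher and 2237 (15.3%) as lower; the higher genes then made up 62.6% of the shared calls, against 41.7%. Normexp background correction, which was run with an offset of 50 added to every signal, left 388 genes (2.65%) shared as higher and 492 (3.35%) as lower. The 75th percentile of the arrays' processed signal lay between 5.99 and 7.51 in log2. The part of the offset in the drop of these and all later normexp counts was not tested. Both comparisons use the same input arrays, so a low or high input value moves both IPs the same way.

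**Figure D1:**
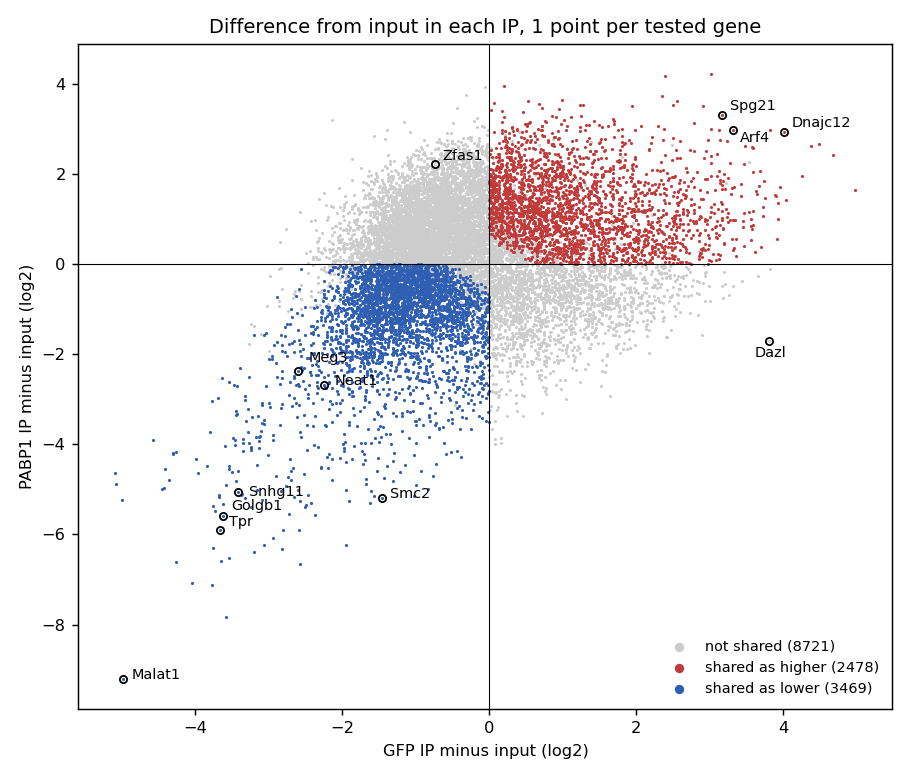
Each point is 1 of 14668 tested genes, with the GFP IP minus input on the horizontal axis and the PABP1 IP minus input on the vertical axis, both in log2. Red marks the 2478 genes shared as higher and blue the 3469 shared as lower; the blue cloud reaches further from zero, with Malat1 at its end, and Dazl lies in the lower right, high in the GFP IP and low in the PABP1 IP.

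A shared difference was not the only outcome. The average passed the threshold in 7873 genes, and in 1926 of these the IPs stood on opposite sides of input. In 2551 of the 14668 tested genes each IP passed separately in opposite directions, 1832 of them lower in the GFP IP and higher in the PABP1 IP. Dazl itself, the mRNA of the germ-cell RNA-binding protein, is such a gene. Its log2 levels were −0.23, −0.36 and −0.61 in the inputs, 3.13, 3.84 and 3.27 in the GFP IPs, and −2.12 and −2.09 in the PABP1 IPs. Every GFP IP lay above every input and both PABP1 IPs below, so its average of 1.06 describes neither IP. Pabpc1, which encodes PABP1, ranged from 7.62 to 8.83 in the inputs and from 6.78 to 8.60 in the GFP IPs. In the PABP1 IPs it ranged from 7.79 to 9.32. Its arrays on slide 1, at 8.55 to 9.32, all lay above those on slide 2, at 6.78 to 7.79. The average of −0.32 ± 0.55 (SE, adjusted p = 0.657, limma) did not pass.

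Nuclear long non-coding RNAs were the list with the lowest median. Of 14 on the array, 8 were well above background in at least 1 group and were tested; 5 of these (62.5%, beside 23.7% of all tested genes) fell in both IPs and none was shared as higher (16.9% of all). The list's median was −2.48, against −0.07 for all tested genes, and it stayed at −2.48 when dim groups were set at their bound. In all 5, each IP also passed separately (14.6% of all genes) and all 5 IP arrays lay below all 3 inputs (17.8% of all). This list and those that follow were chosen with earlier results of these data known, so their shares describe the lists and test nothing.

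Malat1, an abundant RNA of nuclear speckles, had the lowest average of any named gene. Its inputs stood at 4.32, 4.81 and 4.22, its GFP IPs at −1.17, 0.17 and −0.59, and its PABP1 IPs, neither of them well above background, at −4.62 and −4.87. The groups do not overlap, and each IP group stands apart from the other. The GFP IPs were lower than input by 4.98 ± 0.34 (SE; adjusted p = 4.03e-05, limma), a 31.5-fold loss. In the PABP1 IPs, Malat1 was at least 354-fold lower than in input, where a bound sets the dim group at the lowest signal that counts as above background, or at the probe's own signal where that is higher. Its other 3 probes gave −4.74, −2.76 and −4.26 in the average, all lower in both IPs.

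Neat1, the scaffold RNA of paraspeckles, had inputs of 4.87, 4.89 and 4.78, GFP IPs of 2.40, 2.65 and 2.73, and PABP1 IPs of 2.11 and 2.20. It was 4.77-fold lower in the GFP IP and 6.45-fold lower in the PABP1 IP. Firre, an X-linked RNA that stays at chromatin, had inputs of 3.01, 3.19 and 2.88, GFP IPs of 0.44, 0.88 and 0.57, and PABP1 IPs of 0.04 and −0.12. It was 5.26-fold and 8.39-fold lower, and a second probe gave −2.61 against −2.73. In both RNAs the spread within a group was far smaller than the step between input and IP.

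Meg3, Rian and Mirg are non-coding RNAs made from one imprinted region, from the maternal chromosome. Meg3 had inputs of 5.61, 5.75 and 5.40, GFP IPs of 2.86, 3.14 and 2.95, and PABP1 IPs of 3.38 and 3.03, and was 6.05-fold and 5.22-fold lower. The difference between the IPs did not pass for Meg3 (adjusted p = 0.291, limma), and its 3 other probes that were well above background on any array gave −2.13 to −2.90. Mirg had inputs of −1.21, −0.77 and −0.56 and GFP IPs of −3.31, −2.83 and −3.27, a 4.90-fold loss. Its PABP1 IPs, at −4.51 and −6.18, were not well above background, so that it was at least 9.01-fold lower there; after normexp correction its call was lost (−0.91, adjusted p = 0.14, limma). Rian was dim, its groups overlapped, and its average of 0.38 ± 0.56 (SE) did not pass.

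The remaining members did not pass in the main fit. Tug1, which is found in both nucleus and cytoplasm, had inputs of −2.34, −2.0 and −2.52, GFP IPs of −2.01, −1.55 and −1.91 and PABP1 IPs of −2.64 and −2.78, an average of 0.02 ± 0.17. Terc, the RNA component of telomerase, averaged −1.11 ± 0.72 (adjusted p = 0.233, limma). Its PABP1 IPs, at −0.84 and −3.95, lay on either side of its inputs (−1.58, −1.94 and −2.03). Its IP arrays stood at −0.84 and −2.47 on slide 1 and at −3.95, −3.91 and −4.20 on slide 2. Without PABP1 IP replicate 1 its average was −1.89.

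Non-coding host RNAs of small nucleolar RNAs (snoRNAs), whose introns hold the snoRNAs and whose exons are often spliced, exported and degraded on ribosomes, went 2 ways. All 11 were tested, and 4 (36.4%, beside 23.7% of all genes) were shared as lower and none as higher. Of the other 7, 6 were lower in the GFP IP and higher in the PABP1 IP, each past the threshold. Of all 14668 tested genes 1832 were. The 4 lower hosts were Snhg14, Snhg11, Snhg8 and Snhg20. Snhg20 was the brightest of these, with inputs of 6.30, 6.48 and 6.46, GFP IPs of 4.19, 4.35 and 4.51, and PABP1 IPs of 3.72 and 3.92, a 4.17-fold and 6.03-fold loss. Snhg8 had inputs of 2.10, 2.19 and 2.00, GFP IPs of 0.16, 0.19 and 0.12, and PABP1 IPs of −3.06 and −2.78. Its measured loss was 3.83-fold in the GFP IP and 32.4-fold in the PABP1 IP, where only 1 of 2 arrays was well above background. Snhg14, the long transcript of the imprinted Prader-Willi region, was 5.94-fold lower in the GFP IP and at least 22.7-fold lower in the PABP1 IP, where it was not well above background. Snhg11 was 10.6-fold lower and at least 29.8-fold lower by the same reading. Its other 3 probes averaged −0.55, −2.42 and −3.78, and the first of these was not lower in the PABP1 IP (0.18).

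Most other hosts were higher, not lower, in the PABP1 IP. Zfas1 had inputs of 6.83, 6.94 and 6.79, GFP IPs of 6.05, 6.27 and 6.01, and PABP1 IPs of 9.23 and 8.92. Gas5 had inputs of 7.35, 7.33 and 7.46, GFP IPs of 6.82, 6.73 and 6.84, and PABP1 IPs of 8.91 and 8.85. The PABP1 IPs of both lay above every input and the GFP IPs below. Snhg5, Snhg16, Snhg17 and Snhg18 had the same order, and Snhg7 was lower in the GFP IP alone (−1.88, against 0.02 in the PABP1 IP). For Gas5 and Snhg5 the probes disagreed: a second Gas5 probe was lower in both IPs (−1.22 and −1.10), a second Snhg5 probe likewise (−1.21 and −2.80), and the mean of their probes averaged −0.35 and −1.0.

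Of snoRNA genes themselves, which were chosen after their values were seen, 4 were tested: Snord22, Snord35b, Snora69 and Snord33. All 4 were shared as lower, beside 23.7% of all tested genes, but only Snord22 and Snord35b passed in each IP separately. Snord35b, a guide for methylation of ribosomal RNA, had inputs of −0.01, 0.04 and −0.44, GFP IPs of −1.89, −1.32 and −1.73, and PABP1 IPs of −3.71 and −3.85. Snord33 differed least, at −0.65 ± 0.19 (SE), and its PABP1 IPs, at 0.66 and −0.04, overlapped its inputs. Probes for these genes may also read the host transcript, which was not tested. After normexp correction none of the 4 passed.

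Over all long non-coding RNAs the share of losses was near the background. Of 216 tested genes that RefSeq types as lncRNA, 47 (21.8%) were shared as lower, beside 23.7% of all genes, and 17 (7.87%) as higher, beside 16.9%. Their medians were −0.95 in the GFP IP and 0.70 in the PABP1 IP. Of a list of 6 other long non-coding RNAs, none was shared as lower and Oip5os1 was shared as higher (1.15 ± 0.25, SE). Its 2 other probes disagreed, at −1.45 and 1.88, and the mean of its probes did not pass (0.53, adjusted p = 0.226, limma).

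**Figure D2:**
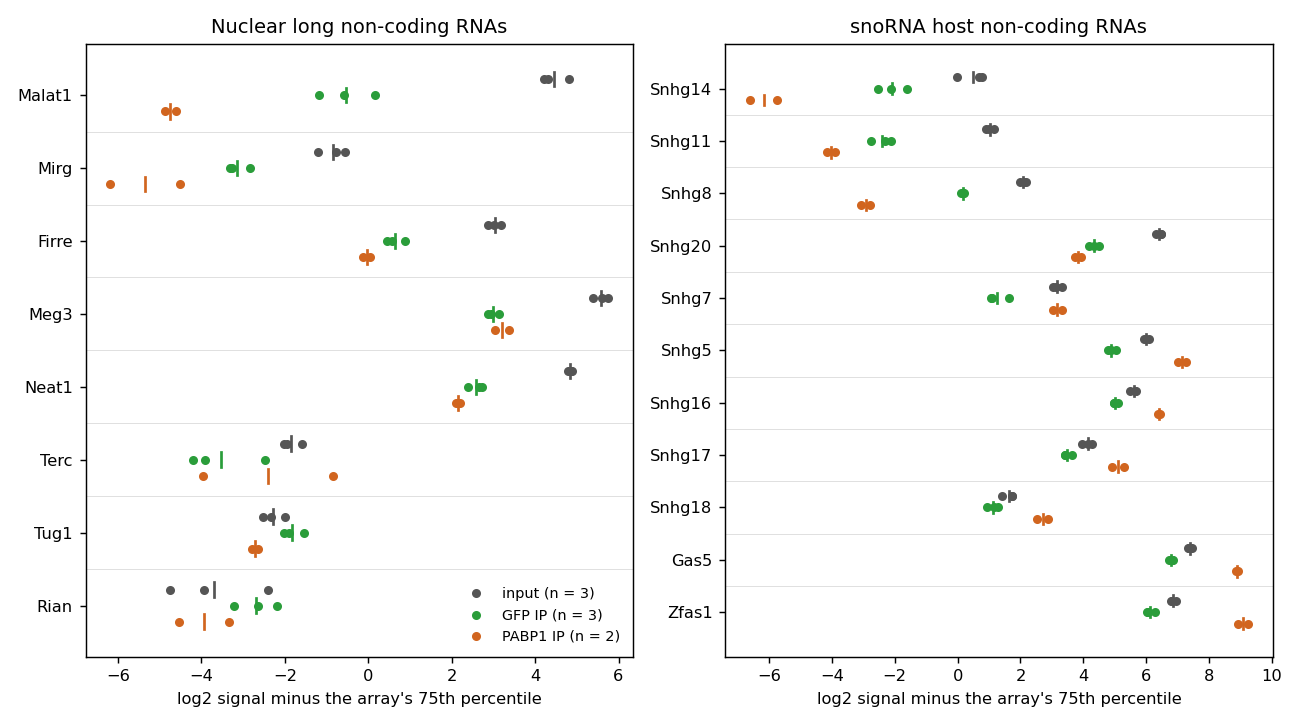
Each dot is 1 array and each short line a group mean, for the 8 tested nuclear long non-coding RNAs on the left and the 11 snoRNA hosts on the right; the horizontal axis is log2 signal minus the array's 75th percentile. From Malat1 to Neat1 on the left, and for Snhg14, Snhg11, Snhg8 and Snhg20 on the right, all IP dots lie left of the input dots, while from Snhg5 down to Zfas1 the PABP1 IPs lie right of the inputs and the GFP IPs left. The PABP1 IP dots of Malat1, Mirg, Snhg14 and Snhg11 were not well above background, and for Snhg8 and Rian only 1 of the 2 was.

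The deepest shared losses among genes measured on every array included the mRNAs of 2 very large proteins, Tpr and Golgb1. The 12 genes ranked lowest by the smaller of their 2 IP differences, among those well above background on all arrays, averaged between −3.25 and −5.13. Tpr, the filament protein of the nuclear pore basket, had inputs of 4.0, 4.14 and 3.82, GFP IPs of −0.30, 0.76 and 0.52, and PABP1 IPs of −2.14 and −1.70. It was 12.7-fold lower in the GFP IP and 59.9-fold lower in the PABP1 IP. Golgb1, or giantin, a Golgi tether, had inputs of 2.17, 2.77 and 1.95, GFP IPs of −2.37, −0.26 and −1.34, and PABP1 IPs of −2.68 and −3.93. Despite the wide spread of its IP arrays, none came within 2 log2 units of an input. Of its other 5 probes, 3 were well above background on some array and averaged −2.32, −3.19 and −5.68; the other two, above background on no array, give no measure. The second Tpr probe was lower by less (−1.78).

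Nemf, a factor of ribosome-associated quality control, was 11.9-fold and 29.9-fold lower, with inputs of 4.81, 4.69 and 3.89 against GFP IPs of 0.33, 1.49 and 0.84 and PABP1 IPs of −0.32 and −0.57. Nol8, a nucleolar protein, was 9.46-fold and 41.6-fold lower, and Zgrf1, a DNA helicase, 9.43-fold and 16.6-fold. Syt10, a synaptotagmin, was 8.52-fold and 37.6-fold lower. Mink1, a kinase, was 10.8-fold and 28.1-fold lower by its chosen probe, while its second probe averaged −0.20. BC010335 and ENSMUST00000006203, which keep their array names here, were among the 4 with the lowest averages, at −5.13 and −4.61. In 8 of these 12 genes the PABP1 IP lay below the GFP IP beyond the threshold. The share of all tested genes in which the IPs differed is not given here.

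H1f10, the linker histone H1X, was ranked too, but with the widest spread, and its arrays moved with the slide. This was not particular to H1f10: arrays of Zgrf1, BE573237 and Pabpc1 also moved with the slide. Its inputs stood at 5.13 and 5.43 on slide 1 and at 3.39 on slide 2, its GFP IPs at 3.06 on slide 1 and at 0.56 and 0.43 on slide 2, and its PABP1 IPs at 2.27 on slide 1 and 0.06 on slide 2. The average of −3.39 became −2.83 with the slide as a block, −2.61 within slide 1 and −3.11 within slide 2. A second H1f10 probe averaged 0.51, so the loss was not seen by both probes. An unnamed transcript, NAP050809-1, shared the pattern over slides, at −3.40 over both slides, −2.97 within slide 1 and −2.77 within slide 2.

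**Figure D3:**
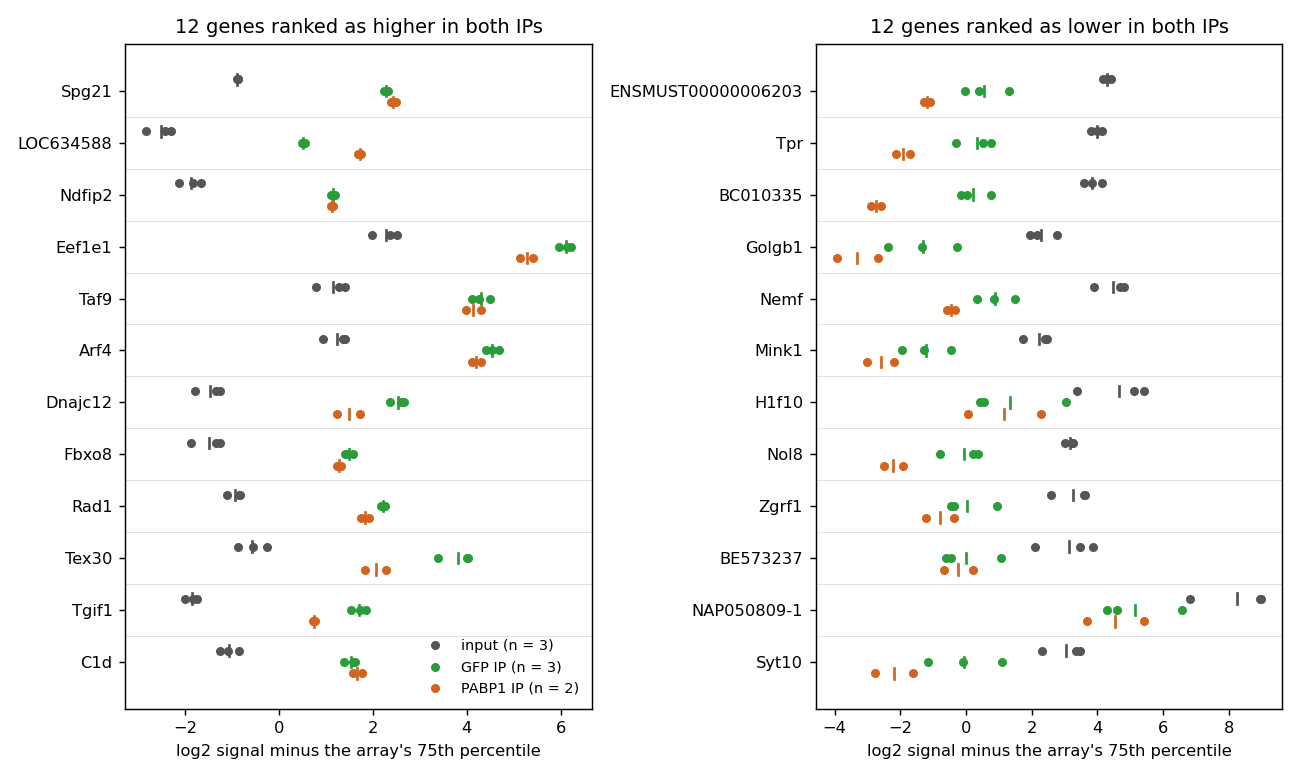
The 12 genes ranked as higher (left) and the 12 ranked as lower (right) in both IPs are drawn with 1 dot per array and a short line at each group mean, against log2 signal minus the array's 75th percentile. All 5 IP dots lie on 1 side of the 3 input dots in each gene, as the ranking required; dots of a group lie closer together on the left than on the right, where H1f10, NAP050809-1 and Syt10 spread most.

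Most mRNAs of large coiled-coil proteins of the Golgi, the centrosome and the nuclear pore were lower in both IPs. Of 34 on the array 31 were tested; 27 (87.1%, beside 23.7% of all tested genes) fell in both IPs and none was shared as higher (16.9% of all), with a median of −1.71. In 21 each IP passed separately (14.6% of all genes), and in 24 all IP arrays lay below all inputs (17.8% of all). The list was chosen with earlier results of these data known and holds Tpr and Golgb1, so its share is a description and no separate evidence. After Tpr and Golgb1 followed the Golgi protein Golga4 (−3.40), the centriolar satellite protein Pcm1 (−3.36) and the Golgi tether Trip11 (−3.29). The kinetochore motor Cenpe (−2.50) and the kinetochore protein Cenpf (−2.41) were also shared as lower. Golga3, at 0.23, was the only tested member with a positive average. After normexp correction, 11 of the 31 were shared as lower, where 3.35% of all genes were.

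Subunits of cohesin and condensin, the ring complexes that hold and fold chromosomes, were shared as lower in 13 of 19 genes (68.4%, beside 23.7% of all tested genes) and as higher in none (16.9% of all), with a median of −1.15. Smc2, a condensin ATPase, had inputs of 2.17, 2.66 and 2.48, GFP IPs of 0.46, 1.32 and 1.16, and PABP1 IPs of −2.86 and −2.64, a 2.74-fold and 36.3-fold loss. Of its other probes, 2 averaged −3.84 and 0.71, and the third was above background on no array. Ncapg, a condensin regulatory subunit, had inputs of 5.07, 4.88 and 4.46, GFP IPs of 1.91, 2.62 and 2.19, and PABP1 IPs of 2.63 and 2.39, a 5.91-fold and 4.91-fold loss. The difference between the IPs passed for Smc2 (adjusted p = 2.85e-05, limma) and did not for Ncapg (adjusted p = 0.368, limma). The cohesin cleavage subunit Rad21, with an average of 1.08, was not shared. After normexp correction 6 of the 19 were shared as lower, beside 3.35% of all genes.

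Chromatin remodellers and histone methyltransferases were shared as lower in 25 of 35 tested genes (71.4%, beside 23.7% of all) and as higher in 1 (2.86%, beside 16.9%), with a median of −1.48. The remodelling ATPases Smarca4 (−2.86) and Chd4 (−2.70) and the methyltransferase Kmt2c (−2.91) were among these. Baz2b, a bromodomain protein, had inputs of 0.97, 1.26 and 1.12, GFP IPs of −0.40, 0.50 and 0.25, and PABP1 IPs of −4.13 and −3.45. Its GFP IPs were 2.00-fold lower and its PABP1 IPs 30.0-fold lower, and a second probe was lower in the PABP1 IP only. Only 1 of its 2 PABP1 IPs was well above background by the chosen probe. The exception was Smarcd1, an accessory subunit of the same SWI/SNF complex as Smarca4, which rose in both IPs: its inputs were −1.03, −1.11 and −1.04, its GFP IPs 1.58, 1.37 and 1.42, and its PABP1 IPs −0.12 and −0.09. After normexp correction 11 of the 35 were shared as lower, beside 3.35% of all genes, and the call of Smarcd1 was lost (0.82, adjusted p = 0.079, limma).

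Histone mRNAs were described in 2 lists by how they end. Replication-dependent histones, most of whose mRNAs end in a stem-loop without a poly(A) tail, were shared as lower in 15 of 26 tested genes (57.7%, beside 23.7% of all) and as higher in 3 (11.5%, beside 16.9% of all), with a median of −1.28. The linker histone H1f5 had inputs of 2.94, 2.93 and 3.02, GFP IPs of 1.35, 1.28 and 1.18, and PABP1 IPs of 0.03 and −0.09, a 3.23-fold and 7.97-fold loss. H1f4 was 3.24-fold and 8.12-fold lower. The 3 members shared as higher, H3c14, H1f2 and H3c4, averaged 0.74, 0.57 and 0.51, and in none of the 26 did each IP separately pass as higher. Members of this family have near-identical coding sequences, so a probe may read more than 1 of them. After normexp correction 5 were shared as lower, beside 3.35% of all genes.

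Histone variants with poly(A) tails were shared as higher in 7 of 10 genes, where 16.9% of all tested genes were, with a median of 0.91; H1f10 was the exception. H3f3a, which encodes the variant H3.3, had inputs of 5.69, 5.54 and 5.35, GFP IPs of 6.82, 6.92 and 6.71, and PABP1 IPs of 7.5 and 7.2, a 2.45-fold and 3.52-fold gain. Its 2 other probes gave 2.02 and 2.04. Macroh2a2 was above background on no input and was at least 2.17-fold higher in the GFP IP and at least 1.46-fold higher in the PABP1 IP. After normexp correction none of the 10 was shared as higher; the value of H3f3a was then 1.61 (adjusted p = 0.0611, limma). The difference between both histone lists was not tested.

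Splicing regulators known for retained introns or poison exons were more often lower than higher: of 36 tested, 17 were shared as lower (47.2%, beside 23.7% of all genes) and 7 as higher (19.4%, near the 16.9% of all), with a median of −0.64. Luc7l3, a U1-associated factor, had inputs of 5.71, 5.75 and 5.33, GFP IPs of 2.88, 3.50 and 3.02, and PABP1 IPs of 2.73 and 2.54, a 5.52-fold and 7.77-fold loss. Son, a large speckle protein, was 2.45-fold and 18.4-fold lower by its chosen probe, and 2 other probes averaged −0.64 and 0.30; another was above background on no array. Tra2b, a splicing activator with a poison exon of its own, rose: inputs of 1.88, 1.70 and 1.69 compared with GFP IPs of 4.36, 4.40 and 4.23 and PABP1 IPs of 2.82 and 2.86. After normexp correction 8 of the 36 were shared as lower, beside 3.35% of all genes.

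Zinc finger genes with names in Zfp, most of them transcription factors, were shared as lower in 94 of 239 tested genes (39.3%, beside 23.7% of all) and as higher in 15 (6.28%, beside 16.9% of all). Their median was −0.42. Zfp773 had inputs of 3.70, 3.91 and 4.28, GFP IPs of 1.53, 0.66 and 1.5, and PABP1 IPs of −1.27 and −0.27, while its second probe averaged −0.04. Zfp706, another gene of this name, rose, from inputs of 3.59, 3.41 and 3.82 to GFP IPs of 4.87, 4.36 and 4.74 and PABP1 IPs of 6.43 and 6.77. With median scaling 61 of the 239 were shared as lower, where 15.3% of all genes were, and after normexp correction 10 were, where 3.35% were.

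The RNAs recovered best by both antibodies were led by Spg21, LOC634588 and Ndfip2. The 12 ranked highest averaged between 2.66 and 3.62, and their arrays agreed closely within groups. Spg21, or maspardin, an endosomal protein, had inputs of −0.90, −0.88 and −0.88, GFP IPs of 2.29, 2.24 and 2.32, and PABP1 IPs of 2.39 and 2.48, a 9.0-fold and 9.97-fold gain. Ndfip2, an adaptor of ubiquitin ligases, had inputs of −2.13, −1.65 and −1.83, GFP IPs of 1.10, 1.16 and 1.20, and PABP1 IPs of 1.11 and 1.15. In both genes the IP arrays lay close together; the GFP IP minus the PABP1 IP was −0.15 ± 0.11 (SE) for Spg21 and did not pass (adjusted p = 0.25, limma).

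Taf9, a subunit of the general transcription factor TFIID, rose 8.78-fold in the GFP IP and 7.90-fold in the PABP1 IP, from inputs of 1.40, 1.27 and 0.79 to GFP IPs of 4.26, 4.50 and 4.11 and PABP1 IPs of 4.29 and 3.98. A second Taf9 probe gave 2.82. Arf4, a small GTPase of the Golgi, rose 9.92-fold and 7.82-fold, with inputs of 1.41, 1.36 and 0.93, GFP IPs of 4.40, 4.69 and 4.54, and PABP1 IPs of 4.30 and 4.10. Eef1e1, a scaffold of the tRNA synthetase complex, was the brightest of the 12, with inputs of 2.52, 2.36 and 1.97, GFP IPs of 6.13, 6.21 and 5.97, and PABP1 IPs of 5.41 and 5.13. It rose 14.2-fold and 7.94-fold.

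The others were Dnajc12, a co-chaperone (16.1-fold and 7.69-fold higher), Tex30 (20.7-fold and 6.19-fold), Tgif1, a homeodomain repressor (11.8-fold and 6.07-fold), Rad1, part of the DNA damage checkpoint clamp (8.82-fold and 6.76-fold), Fbxo8, an F-box protein (7.88-fold and 6.81-fold), C1d, a cofactor of the RNA exosome (6.02-fold and 6.67-fold), and LOC634588, which keeps its array name (8.11-fold and 18.6-fold). In all 24 genes ranked in either direction, the average kept its sign under each alternative run. It also passed in each run that kept all arrays, normexp correction included.

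Ubiquitin-conjugating enzymes, the E2 proteins that carry ubiquitin to its targets, were shared as higher in 20 of 33 tested genes, or 60.6%, beside 16.9% of all, with a median of 0.92. Ube2j2, an E2 of the endoplasmic reticulum, had inputs of 1.52, 1.48 and 1.06, GFP IPs of 4.96, 5.01 and 4.86, and PABP1 IPs of 4.09 and 3.79, a 12.1-fold and 6.01-fold gain. One of its other probes gave 3.21 and the other −0.13. Ube2w rose 11.1-fold and 6.16-fold, from inputs that spread widely (−3.46, −2.73 and −1.52) and of which only 2 were well above background. Ube2o, the largest E2, was the only one shared as lower: its inputs were 6.0, 5.95 and 5.74, its GFP IPs 4.82, 4.90 and 4.82, and its PABP1 IPs 3.88 and 3.78. In 14 of the 33, each IP separately passed as higher (9.33% of all genes). After normexp correction 8 of the 33 were shared as higher, where 2.65% of all genes were, and Ube2o no longer passed (−1.42, adjusted p = 0.0618, limma).

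Small GTPases of the Rab family, which direct vesicles between membranes, were shared as higher in 22 of 50 tested genes, where 16.9% of all were, and as lower in none, where 23.7% of all were, with a median of 0.61. Rab1a, which acts between the endoplasmic reticulum and the Golgi, had inputs of 3.56, 3.43 and 3.23, GFP IPs of 6.42, 6.43 and 6.56, and PABP1 IPs of 5.12 and 4.97, an 8.37-fold and 3.11-fold gain. Rab28 had inputs of −0.71, −0.74 and −0.39, GFP IPs of 1.06, 0.92 and 0.92, and PABP1 IPs of 1.98 and 1.86. Rab1a was thus recovered more by the GFP antibody and Rab28 more by the PABP1 antibody. After normexp correction 5 of the 50 were shared as higher, beside 2.65% of all genes.

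Genes named Tmem, for transmembrane proteins without another name, were shared as higher in 54 of 159 tested (beside 16.9% of all genes) and as lower in 21 (13.2%, beside 23.7% of all), with a median of 0.49. Tmem38b, a channel of the endoplasmic reticulum, had inputs of −1.97, −2.0 and −2.06, GFP IPs of 0.64, 0.37 and 0.61, and PABP1 IPs of 1.56 and 1.66. Tmem161b was lower, 2.02-fold and 18.9-fold, while its second probe averaged 0.18. After normexp correction 10 of the 159 were shared as higher, beside 2.65% of all genes.

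Immediate-early and other short-lived mRNAs, many of which carry AU-rich elements, were shared as higher in 21 of 38 tested genes (55.3%, beside 16.9% of all) and as lower in none (23.7% of all), with a median of 0.64. Siah2, a ubiquitin ligase, had inputs of −1.55, −1.66 and −1.28, GFP IPs of 2.70, 2.03 and 2.61, and PABP1 IPs of −0.01 and 0.44, a 15.4-fold and 3.27-fold gain. Zfp36l1, which itself binds AU-rich elements, had inputs of −0.02, 0.15 and 0.00, GFP IPs of 2.49, 2.65 and 2.56, and PABP1 IPs of 1.57 and 1.74. The phosphatase Dusp1 (1.94) and the transcription factors Fos (1.82) and Myc (1.12) were also shared as higher. After normexp correction 5 of the 38 were, beside 2.65% of all genes.

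**Figure D4:**
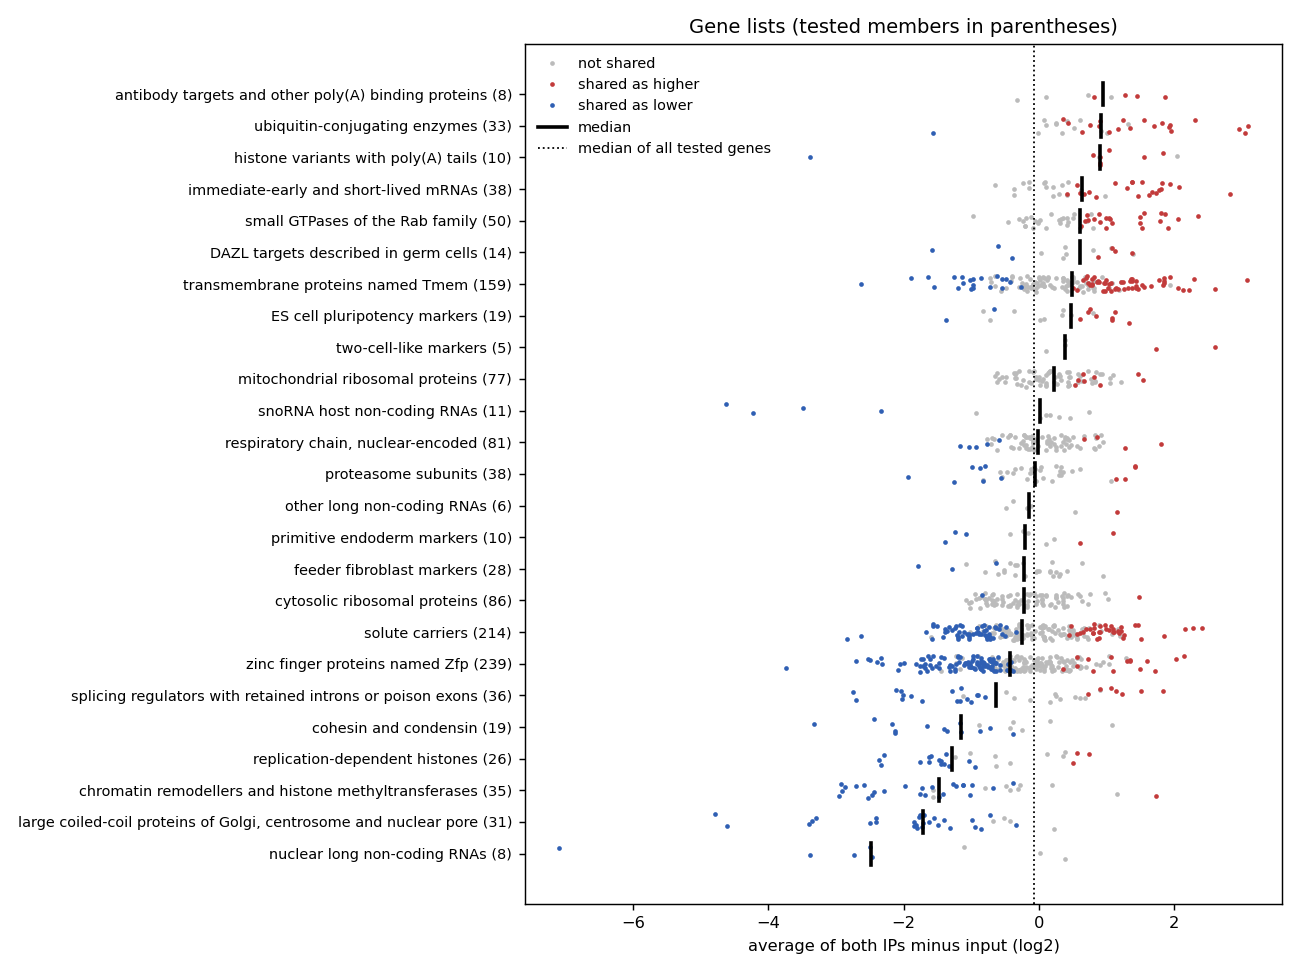
Each dot is a tested gene of the named list, placed by the average of both IPs minus input (log2), in red where shared as higher, blue where shared as lower and grey otherwise; black bars are list medians and the dotted line is the median of all tested genes, −0.07. Medians run from −2.48 for the nuclear long non-coding RNAs to 0.94 for the poly(A) binding proteins, and the ribosomal protein lists are nearly all grey.

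Regulators of PABP1 were recovered by both antibodies. Paip2, which displaces PABP1 from poly(A), had inputs of 4.15, 4.02 and 3.87, GFP IPs of 5.74, 5.58 and 5.65, and PABP1 IPs of 6.10 and 6.10, a 3.14-fold and 4.25-fold gain. Paip1, a partner of PABP1 in translation, was 3.53-fold and 2.11-fold higher, and lost its call after normexp correction (1.03, adjusted p = 0.0825, limma). Of the 8 tested genes on the list of antibody targets and poly(A) binding proteins, 4 were shared as higher, where 16.9% of all genes were, and none as lower.

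Germ-cell mRNAs known as targets of DAZL did not move together: of 14 tested, 4 were shared as higher (28.6%, beside 16.9% of all genes) and 3 as lower (21.4%, near the 23.7% of all). Their medians were 1.79 in the GFP IP and −0.48 in the PABP1 IP. In opposite directions 6 of the 14 passed, beside 2551 of all 14668 tested genes. Tex14, a protein of germ-cell bridges, had inputs of 1.21, 1.07 and 1.01, GFP IPs of −0.11, −0.14 and −0.04, and PABP1 IPs of −0.96 and −0.78, and was lower in both.

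Of the 19 pluripotency markers, 8 were shared as higher (42.1%, beside 16.9% of all genes) and 2 as lower (10.5%, beside 23.7%), with a median of 0.48. Dppa3, a germ-cell and naive-state factor, had inputs of 1.53, 1.48 and 2.03, GFP IPs of 3.21, 2.77 and 3.15, and PABP1 IPs of 2.78 and 3.18, 2.57-fold and 2.46-fold higher; it lost its call after normexp correction (1.21, adjusted p = 0.0816, limma). Sox2 was called, but its gain lay in the GFP IP (4.09-fold, against 1.16-fold in the PABP1 IP, where it did not pass). Tfcp2l1 and Tbx3, called as lower, fell in the PABP1 IP only, and both lost their call with median scaling.

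Housekeeping mRNAs of ribosomes and mitochondria were seldom shared, beside 16.9% of all genes shared as higher and 23.7% as lower. Of all 14668 tested genes, 2551 passed in opposite directions. With median scaling 1487 did, and after normexp correction 55. How the opposite counts of these lists changed under those settings is not given here. Of 86 cytosolic ribosomal protein genes, 1 was shared as higher and 1 as lower, and 24 passed in opposite directions; the list's medians were −1.02 in the GFP IP and 0.47 in the PABP1 IP. Of 77 mitochondrial ribosomal protein genes, 8 were shared as higher and 45 passed in opposite directions. Of 81 nuclear-encoded respiratory chain genes, 4 were shared as higher and 5 as lower, with 54 opposite. Among the exceptions, Ndufc2, a complex I subunit, rose 3.97-fold and 3.08-fold, and Ndufv1, another, was 3.71-fold and 1.36-fold lower, which normexp correction did not keep (−1.05, adjusted p = 0.143, limma). Of 38 proteasome genes, 4 were shared as higher and 7 as lower. Psmd1, the largest subunit of the regulatory cap, had inputs of 3.84, 3.56 and 3.45, GFP IPs of 1.87, 2.08 and 1.92, and PABP1 IPs of 1.44 and 1.41.

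Feeder fibroblast markers showed few shared differences. Of 28 tested, 3 were shared as lower (10.7%, beside 23.7% of all genes), namely Prrx1, Pdgfrb and Fn1. None was shared as higher, and the median of the average was −0.22. In opposite directions 10 of the 28 passed, beside 2551 of all 14668 tested genes. The list's medians were −1.04 in the GFP IP and 0.64 in the PABP1 IP. Prrx1, a mesenchymal homeodomain factor, had inputs of 0.83, 1.34 and 1.26, GFP IPs of −0.52, 0.07 and 0.06, and PABP1 IPs of −1.34 and −0.95, and 2 further probes gave −1.01 and −0.88, while the other 3 were above background on no array. The summed signal of the 30 markers, in multiples of the array's 75th percentile, was 635 to 837 in the inputs, 258 to 327 in the GFP IPs and 1170 to 1240 in the PABP1 IPs. That of the 19 pluripotency markers was 2500 to 4430, 1830 to 2340 and 2300 to 4190. These sums compare shares of the labelled RNA between input and IPs, so they give no measure of the number of feeder cells. The part of feeder RNA in the shared lists was not tested.

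Some RNAs were measured on 1 side only. Well above background on all 3 inputs and on none of the 5 IP arrays, by any probe, were 43 genes. All 43 were shared as lower, beside 23.7% of all tested genes, and all had a bound of 2-fold or more in each IP. The reverse held for 73 genes, of which 60 were shared as higher, beside 16.9% of all, and 7 had a bound of 2-fold or more in each IP. Both sets were chosen by the side on which they were seen. Their calls follow largely from that choice and are not separate evidence. The 5 lost genes with the largest bounds have no RefSeq name here. AK050084, a RIKEN cDNA, had inputs of −0.12, 0.01 and 0.04 and was at least 15.5-fold lower in the GFP IP and at least 15.4-fold lower in the PABP1 IP. Among genes seen in the IPs only, Rad51c, a recombination factor, was at least 2.99-fold and 4.58-fold higher, Adamtsl4 at least 2.86-fold and 3.17-fold, and the kinase Cdk2 at least 7.67-fold and 2.12-fold. After normexp correction AK050084 (−1.24, adjusted p = 0.0695, limma) and these 3 genes no longer passed, and for Cdk2, whose second probe was above background on no array, the mean of its probes did not pass either (0.69, adjusted p = 0.0777, limma).

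Shared calls were found at all signal levels. When tested genes were cut into 4 equal classes by mean level, 11.6% of the lowest class were shared as higher and 15.7% as lower, and in the third class 20.1% and 28.9%. They were less even by the kind of sequence a probe was made from. Probes for RefSeq mRNAs gave 22.5% lower and 18.8% higher, probes for RIKEN cDNAs 27.8% and 9.62%, and probes for MGC cDNAs 35.1% and 13.0%. These shares were not tested against each other.

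Probes for 1 gene did not always tell the same story, above all for losses. Only further probes that were well above background on all arrays of at least 1 group, as for tested genes, were counted. There were 1127 of these for 892 genes shared as higher, and 66.8% lay above input in both IPs; in the average, 83.7% did. For 1242 genes shared as lower, 54.2% of 1640 further probes lay below input in both IPs and 74.3% in the average. Their median average difference was −0.54, against −1.10 for the probes that stood for those genes, while the further probes of higher genes had a median of 1.07 against 1.10. Where probes lie in their transcripts was not analysed here.

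**Figure D5:**
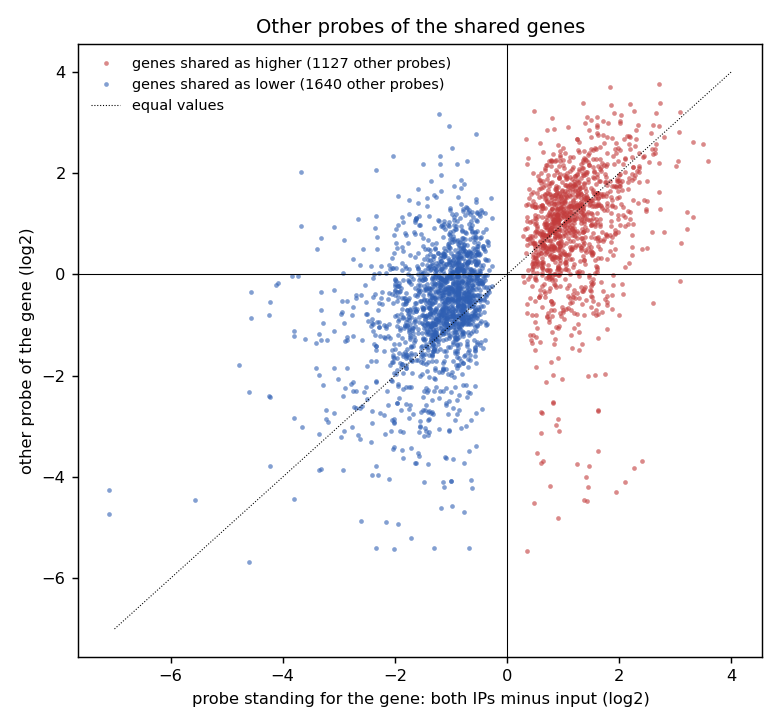
Each dot is a further probe, past the same background filter as tested genes, of a gene shared as higher (red, 1127 probes) or lower (blue, 1640 probes): the horizontal axis is the average of both IPs minus input (log2) for the probe that stood for the gene, and the vertical axis the same for the further probe. Red dots gather around the dotted line of equal values, while blue dots lie mostly above it, many near or over zero.

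In the authors' deposited table of group means, 10000 of the tested genes were matched. All 1634 of these that were shared as higher lay above input in both IPs there, and 1905 of 2246 shared as lower lay below. The median gene of that table stood at 0.25 in the average, against −0.06 here, so its zero differs.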

How the data were processed

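RNA was labelled with Cy3 for 1-colour Agilent arrays (design 014868). The deposited intensity values come from Feature Extraction 9.1.3.1 with protocol GE1-v5_95_Feb07, per the file headers; this software subtracts background and gives dim spots a surrogate. Group mean intensities, which the authors deposited as well, have an unknown scaling. The number of arrays limits the precision. Processed intensities were taken to log2 less the array's 75th percentile over 43379 spots; spots of a probe were averaged, and 32 probes with outlier spots were left out. Accessions were named through RefSeq gene names of assembly GRCm38.p6, without versions: of 14668 tested genes, 10723 matched by accession, 1450 by symbol, 780 by synonym, and 1715 kept the array's name. The probe with the highest mean stood for its gene; a gene was tested where 1 group or more had it well above background on all its arrays. Limma 3.58.1 (lmFit, eBayes; R 4.3.3, version 1.17.8 of data.table) fitted all 8 arrays with 1 mean per group, 5 residual and 2.11 prior degrees of freedom, two-sided, with Benjamini-Hochberg adjustment over all tested genes; it was tested on simulated data. No label states that replicates are separate cultures, so the p-values cover only the variation among these arrays, part or all of which may be technical. Deviations of same-numbered arrays correlated at −0.74 to 0.62, positive for arrays on the same slide and negative for arrays on different slides. The sign thus followed the slide, so this check cannot tell whether replicate numbers pair the arrays. The main fit has no term for the slide. Files name no genome build, so no positions are given, and no probe or transcript sequences were used here. Slides are those of the array identifiers.

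Named genes are, per direction, the 12 with the largest smaller IP difference among shared genes passing in each IP, measured on all arrays and without overlap; the 5 with the largest bound seen on 1 side only; all tested nuclear long non-coding RNAs and snoRNA hosts; Dazl and Pabpc1; and up to 2 highest and 2 lowest shared members of each described list. Further list members are given with their average where named; those, and the snoRNA genes, were chosen after their values were seen. Some genes that this rule names are not reported here. The members and lists were chosen with earlier results of these data known. Alternatives were other scalings, background correction, filters, probes, weights, slides, the replicate block and each array left out. Python 3.11.15 with matplotlib 3.10.9 drew the figures.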

Additional observations from a re-analysis of the deposited data

Results flagged for a closer look

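Named genes, shared or not, were checked for a difference between the antibodies. Of 45 checked, 31 differed between the GFP IP and the PABP1 IP by limma's test of that difference, adjusted over all tested genes. How many of all tested genes differed is not given here, so this count cannot be read as high or low. Values here are the GFP IP minus the PABP1 IP in log2, so a positive value means more signal in the GFP IP.

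Among RNAs ranked as higher in both IPs, the difference was −1.20 for LOC634588, 0.84 for Eef1e1, 1.06 for Dnajc12, 0.38 for Rad1, 1.74 for Tex30 and 0.96 for Tgif1. Among those ranked as lower it was always positive, that is, the PABP1 IP was lower: 1.75 for ENSMUST00000006203, 2.24 for Tpr, 2.96 for BC010335, 1.98 for Golgb1, 1.33 for Nemf, 1.37 for Mink1, 2.14 for Nol8 and 2.14 for Syt10. Their adjusted p-values (limma) ran from 0.000103 for BC010335 to 0.0333 for Mink1.

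Among nuclear long non-coding RNAs it was 4.22 for Malat1, 2.21 for Mirg, 0.67 for Firre and 0.44 for Neat1, and 0.88 for Tug1, which was not shared. Malat1 and Mirg were not well above background in the PABP1 IP, so their measured differences are not exact.

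The snoRNA hosts differed in both directions. The 4 shared as lower had positive values: 4.09 for Snhg14, 1.64 for Snhg11, 3.08 for Snhg8 and 0.53 for Snhg20, the first 2 of them dim in the PABP1 IP. The other 7 had negative values: −1.91 for Snhg7, −2.25 for Snhg5, −1.40 for Snhg16, −1.61 for Snhg17, −1.58 for Snhg18, −2.09 for Gas5 and −2.96 for Zfas1. Dazl had the largest difference of the 45, at 5.52 (adjusted p = 9.16e-06, limma), and its average over both IPs describes neither.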

How the results depend on the processing

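Counts were 2478 shared as higher, 3469 as lower and 2551 opposite. Median scaling gave 3747, 2237 and 1487, normexp correction 388, 492 and 55, and the demand that each IP pass separately 1369 and 2139. Opposite genes numbered 1650 without the filter on dim probes and 1526 on slide 2 alone. Leaving out 1 array gave 2263 to 2454 higher, 2992 to 3585 lower and 1913 to 2435 opposite. With the slide as a block, the counts were 2825 higher, 3853 lower and 3727 opposite. The replicate block, whose numbers may or may not pair the arrays, gave 2443 higher, 3540 lower and 2449 opposite. Among the named genes, the replicate block changed whether the average passed for Lamb1 alone. Under normexp correction, members shared as lower numbered 5 for replication-dependent histones, 8 for splicing regulators, 11 for coiled-coil proteins, 6 for cohesin and condensin, 11 for chromatin remodellers and 10 for Zfp genes; members shared as higher numbered 0 for histone variants, 5 for Rab, 10 for Tmem, 8 for ubiquitin-conjugating enzymes and 5 for immediate-early genes. The cause was not tested. Median scaling left 61 Zfp genes lower. With only genes above background on all arrays, 3 nuclear long non-coding RNAs and 1 snoRNA host stayed in the test and lower, since fewer genes are tested. Directions reversed for Snhg5 (−1.0) and Gas5 (−0.35) when all probes of a gene were averaged and for Foxa2 (−0.04) under normexp correction. Of 123 named genes, 55 had an average that kept its sign and no longer passed under normexp correction. At most 6 did so under any other setting that kept all arrays. These counts concern the average alone, without the demand that both IPs lie on the same side of input. The averages of the 24 ranked genes passed under every setting that kept all arrays, and kept their sign throughout. Classes of protein length were not run, as no protein table was used here. Signal over background limits genes dim in 1 group to a bound.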

Other observations

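Solute carriers, membrane transporters of many kinds, were shared about as often as all tested genes: 58 of 214 as lower (27.1%, beside 23.7% of all) and 36 as higher (16.8%, beside 16.9%), with a median of −0.25. Slc25a27, a mitochondrial carrier, had inputs of −0.81, −0.69 and −0.71, GFP IPs of −3.54, −3.55 and −2.90, and PABP1 IPs of −3.59 and −3.20. Only 1 of its 2 PABP1 IPs was well above background. Its measured loss, 6.05-fold and 6.32-fold, did not pass after normexp correction (−0.83, adjusted p = 0.184, limma). Slc39a10, a zinc transporter, was 11.8-fold and 2.0-fold higher, and lost its call likewise (1.01, adjusted p = 0.0758, limma). Slc4a7, a bicarbonate transporter, was called as lower from its PABP1 IPs: inputs of 6.13, 4.91 and 6.36 overlapped GFP IPs of 5.93, 3.36 and 4.22, while PABP1 IPs stood at 0.92 and 1.94.

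Some markers of rarer cell states were tested. Of 5 markers of the two-cell-like state, which appears in few ES cells, 2 were shared as higher, where 16.9% of all genes were. Gm5662 had inputs of −1.85, −1.80 and −1.57, GFP IPs of 1.59, 1.30 and 1.27, and PABP1 IPs of 0.16 and 0.51, an 8.74-fold and 4.20-fold gain; its second probe was above background on 1 array. Eif1a had inputs of 2.20, 1.98 and 1.98, GFP IPs of 4.44, 4.43 and 4.38, and PABP1 IPs of 3.08 and 3.23. Of 10 tested primitive endoderm markers, 2 were shared as higher and 3 as lower (20.0% and 30.0%, beside 16.9% and 23.7% of all genes). Lamb1, a laminin chain, averaged −1.39 (adjusted p = 0.0481, limma), a call lost under 14 of the alternatives, among them median scaling (−1.08, adjusted p = 0.153, limma), quantile and normexp settings and 6 of the fits that left out 1 array. Lrp2 was lower in both IPs (−1.24), and its call did not hold after normexp correction (−0.40, adjusted p = 0.56, limma).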
